A study of Homo sapiens with 18 samples.

Results

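At band 1p35 of chromosome 1 (hg19), 7 protein-coding genes lie under the second longest xChIP H1.2 peak, out of 20098 protein-coding genes of chromosomes 1 to 22 and X: PHACTR4, RCC1, TRNAU1AP, TAF12, RAB42, GMEB1 and YTHDF2. They were chosen by the position of that peak, which their bodies overlap, so the presence of xChIP H1.2 at them is a description and not a finding. The cells were undifferentiated, untreated HL-60/S4, an established human myeloid leukemia line that grows in suspension. In xChIP the cells were fixed with formaldehyde and sonicated, and the fragments were then offered to a rabbit polyclonal antibody to H1.2 or to H1.5. In xxChIP the fixed and permeabilized cells first bound the antibody in place, were fixed again, and only then were sonicated. By the paper's methods, xxChIP also had a longer sonication at other settings, a further detergent step and a different amount of antibody. A difference between the protocols cannot be assigned to a single step. With 2 protocols and 2 antibodies there were 4 groups of 3 replicates, 12 samples of the 18, and the 6 Input samples were not used here. The authors deposited 1 list of peaks per combination, the merge of its replicates, with the start and end of each peak and no score or read number. No spread between replicates can therefore be given, the depth is unknown, no difference below has a test, and a share of bases covered says where a peak was called, not how much H1 was bound. The lists held from 138491 to 143193 peaks, and their share of the known sequence was 26.4% (xChIP H1.2), 20.2% (xxChIP H1.2), 17.2% (xxChIP H1.5) and 16.3% (xChIP H1.5). Peak lists hold no expression, so the identity of the cells could not be checked against marker genes.

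Linker histones bind where DNA enters and leaves the nucleosome and along the linker to the next one, and help polynucleosome chains to fold. H1.2 and H1.5 are somatic variants that differ mainly in their tails. An epitope that is buried in folded chromatin or under another protein may be reached after sonication but not in the fixed nucleus, which is the difference that a comparison of xChIP and xxChIP is meant to show.

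The 1p35 peak ran from 28767776 to 29136011, a length of 368236 bp. The longest xChIP H1.2 peak measured 475723 bp, on chromosome 7, and the next after the 1p35 peak measured 359627 bp, on chromosome 12. Of the 7 gene starts 6 were inside the peak and that of PHACTR4 was not. Peaks of xChIP H1.2 went on beyond both ends. A gap of 3655 bp separated the 1p35 peak from smaller peaks and then from a peak of 137018 bp, and a gap of 8151 bp separated it from a peak of 159526 bp on the other side.

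**Figure D1:**
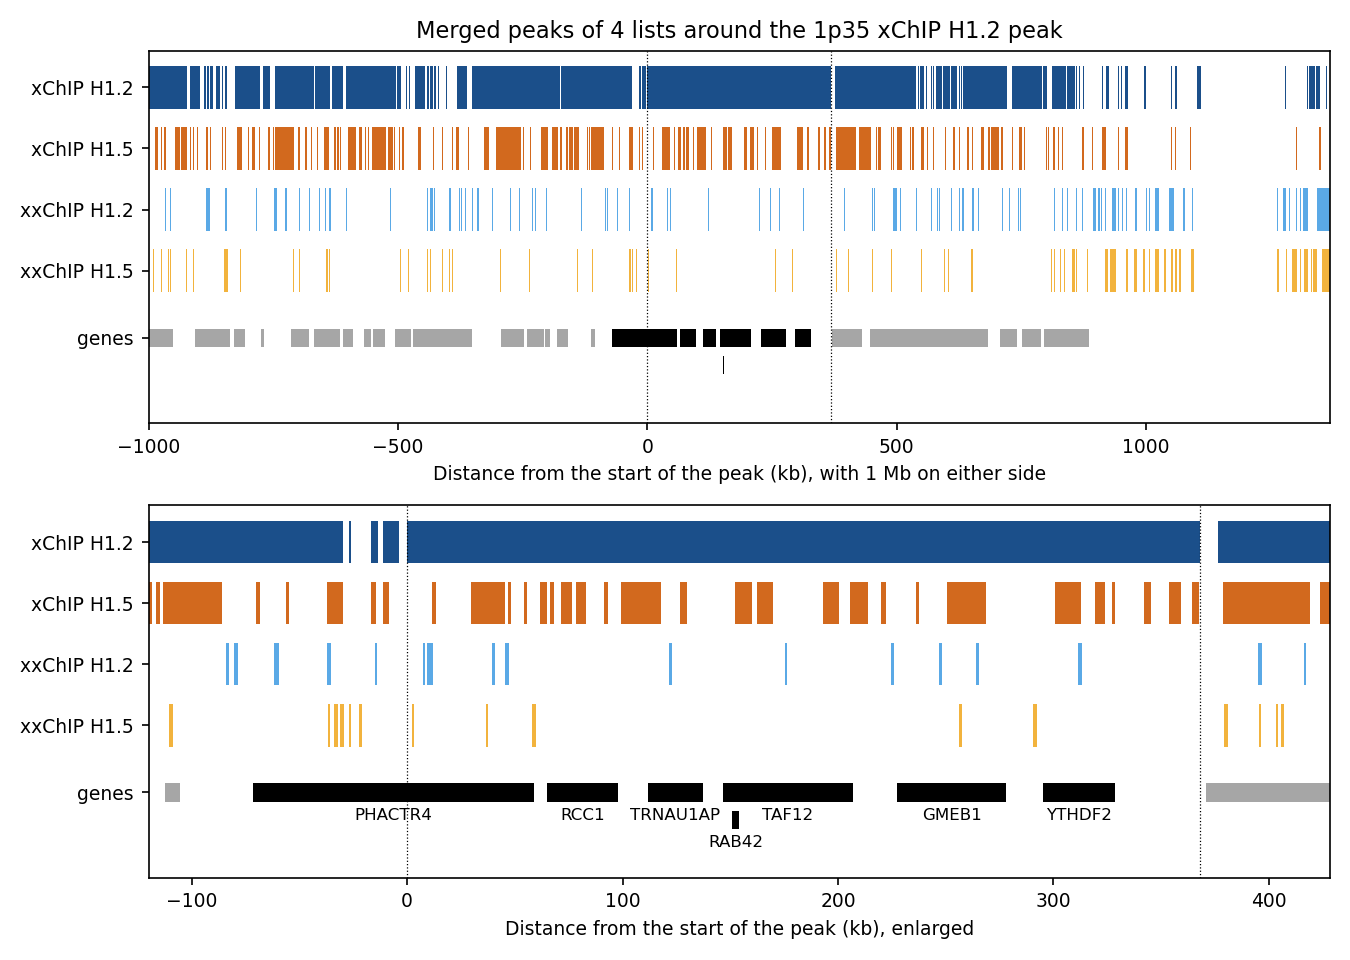
Merged peaks of the 4 lists (coloured blocks, 1 row per list) and protein-coding genes (black for the 7 genes, grey for others) against the distance in kb from the start of the 1p35 peak, with 1 Mb on either side above and enlarged below; dotted lines mark the ends of the peak. One xChIP H1.2 block spans the interval, 24 xChIP H1.5 blocks lie inside it, and 10 xxChIP H1.2 and 5 xxChIP H1.5 blocks are short.

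Inside the 1p35 peak, xChIP H1.5 was present as 24 separate peaks that covered 38.7% of the bases, and the xxChIP lists were sparse. There were 10 xxChIP H1.2 peaks, covering 4.13%, and 5 xxChIP H1.5 peaks, covering 1.90%. The xChIP H1.5 peaks ran from 1041 to 18536 bp, with a median of 4140.5 bp. Those of xxChIP H1.2 ran from 1100 to 2477 bp and those of xxChIP H1.5 from 1015 to 1724 bp. The xxChIP peaks of the domain were thus all short, and the longest of them was under the xChIP H1.5 median. The bases that carried xChIP H1.2 and no other list made up 57.3% of the domain. Of the bases in xxChIP H1.2 peaks, 32.0% were also in xChIP H1.5 peaks, close to the 38.7% of the whole domain that xChIP H1.5 covered, and for xxChIP H1.5 peaks it was 36.9%. The xxChIP H1.2 and xxChIP H1.5 peaks shared no base within the domain. The longest stretch of the domain without any xxChIP peak measured 61909 bp, from 28827531 to 28889439, and held the starts of RCC1 and TRNAU1AP. Such a stretch is not particular to the domain. Counted from the start of the 1p35 peak, a longer one ran from -603.18 to -515.357 kb, under another xChIP H1.2 peak (-604.881 to -504.224 kb).

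The neighbourhood of the domain was asymmetric. In the 1 Mb before it, the xChIP lists covered 82.6% (H1.2) and 40.2% (H1.5), and the xxChIP lists 9.43% (H1.2) and 5.23% (H1.5). The 1 Mb after it holds an assembly gap of 150000 bp, and of the 850000 bp of known sequence there the xChIP lists covered 56.9% (H1.2) and 23.1% (H1.5), and the xxChIP lists 19.4% (H1.2) and 18.2% (H1.5). Thus xChIP H1.5 coverage of the domain was near that of the preceding 1 Mb and above that of the following 1 Mb, while both xxChIP lists covered less of the domain than of either flank. The GC content was 46.6% in the domain, 46.2% before it and 46.9% after it, against 40.9% for the chromosomes as a whole. Gene starts stood at 1.63 per 100 kb in the domain, 1.35 in the flanks and 0.709 over chromosomes 1 to 22 and X.

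**Figure D2:**
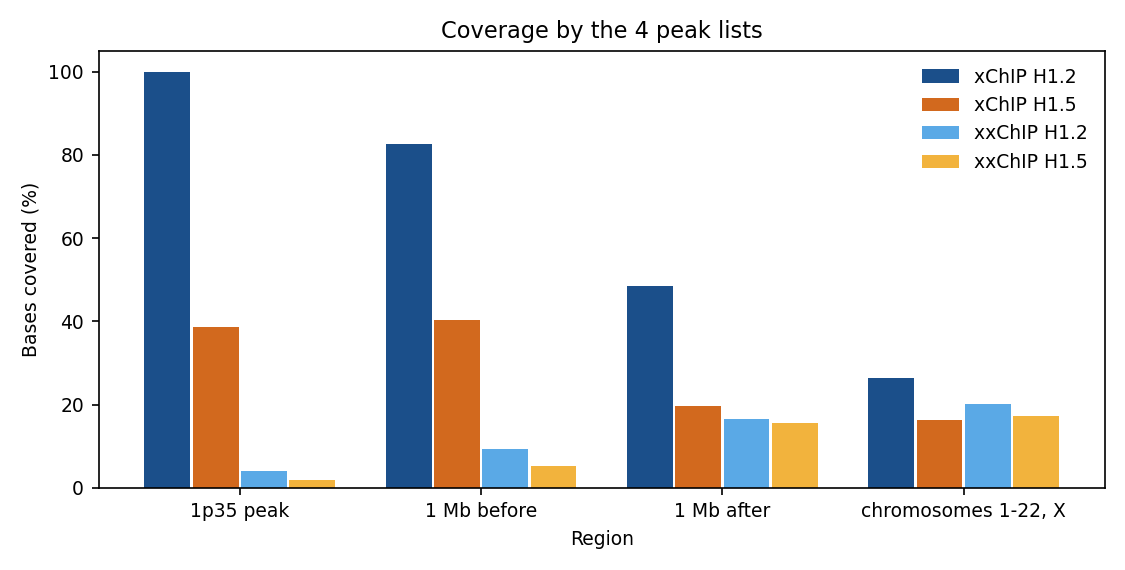
Share of bases covered (%) by each of the 4 lists in the 1p35 peak, in the 1 Mb before and after it (all bases, assembly gap included), and over all chromosomes analysed (known sequence only); bars are single merged lists without error. The xxChIP bars of the 1p35 peak, 4.13% and 1.90%, are the lowest of the 4 regions for their lists, and its xChIP H1.2 bar is at 100% by choice.

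The region with its flanks was cut into 250 windows of 10 kb. The 36 that lay wholly inside the peak had a median xChIP H1.5 coverage of 32.2%, from 0% to 100%. Of them 4 were full and 5 were empty. The full ones ran from 28800001 to 28810000 in PHACTR4, from 28870001 to 28880000 before and across the start of TRNAU1AP, from 29020001 to 29030000 in GMEB1, and from 29070001 to 29080000 in YTHDF2. For xxChIP H1.2, 25 windows were empty and the highest was at 37.2%, from 28770001 to 28780000 in PHACTR4. For xxChIP H1.5, 30 were empty and the highest was at 17.2%. Windows without a peak of either xxChIP list numbered 21 of 36 (58.3%) inside the peak, 61 of 196 (31.1%) in the rest of the region, leaving out the 16 windows with assembly gap and the 2 cut by an end of the peak, and 25.8% over the genome. These windows adjoin one another and share 1 list, so they are not replicates. All 36 inside windows were at 100% for xChIP H1.2 by choice, against 96 of the 196 others. The share for those 96 alone was not computed, so the contrast cannot be called particular to the domain. Across the 250 windows of the region, as a description, xxChIP H1.2 and xxChIP H1.5 coverage had a Pearson's r of 0.468 (Spearman's rho 0.377), and within the peak, over 36 windows, 0.159 (rho 0.0744). The value grew with the window and was 0.335 in windows of 1 kb and 0.821 in windows of 50 kb. The same 250 windows gave an r of 0.487 (rho 0.533) for the xChIP pair. The r of xChIP H1.2 was -0.259 with xxChIP H1.2 (rho -0.199) and -0.368 with xxChIP H1.5 (rho -0.349). For xChIP H1.5 it was -0.178 (rho -0.152) and -0.193 (rho -0.181). Neighbouring windows can share a peak, and windows at 0 in several lists, among them most of the 16 with assembly gap, weigh in all of these values. The 36 windows inside the peak stand at 100% for xChIP H1.2 by the choice of the region. The values with xChIP H1.2 therefore draw on that choice and are no evidence of a relation between lists. Only the xxChIP pair was also computed on the flanks alone and without the gap.

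Gene bodies of the 7 genes were covered by xChIP H1.5 to between 27.4% and 67.6%, with a median of 40.9%. The median was 24.5% over the 28 protein-coding genes of the flanks and 10.3% over all protein-coding genes. Of the 7 genes 2, RAB42 and YTHDF2, were covered to at least 50%, a level that 4.88% of all protein-coding genes reached. In the flanks, 5 of the 28 protein-coding genes (17.9%) reached it. At 75% of the body there were 0 of the 7, but the same number of flank genes, 5 of 28, and 1.91% of all genes, so the order against the flanks turned with the threshold. The bodies of all 7 were covered to at least 50% by xChIP H1.2, which the choice of genes nearly fixes (31% of all genes), and none by a single xxChIP list, H1.2 (2.2% of all genes) or H1.5 (1.8%). At least 1 base was touched by each xChIP list in all 7 bodies, against 82.9% of all genes for H1.2 and 70.3% for H1.5, by xxChIP H1.2 in 5 of the 7 bodies, against 60.6% of all genes, and by xxChIP H1.5 in 2 of the 7, against 58% of all genes. Genes differ in length from 3250 bp for RAB42 to 130784 bp for PHACTR4, and a longer gene is touched more easily.

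PHACTR4 (ENSG00000204138, 28696093 to 28826876, plus strand) codes for a regulator that binds actin and a protein phosphatase, and is the gene cut by the start of the peak. Only 45.2% of its body lay inside. The body was covered to 86.0% (H1.2) and 27.4% (H1.5) by the xChIP lists and to 9.03% (H1.2) and 8.12% (H1.5) by the xxChIP lists, the highest xxChIP values of the 7. The 71683 bp before the peak carried 5 xxChIP H1.5 peaks that covered 10.4%, and the 59101 bp inside it 3 that covered 5.34%. For xxChIP H1.2 the order was opposite, at 7.15% before the peak and 11.3% inside. One xxChIP H1.5 peak, from 28825807 to 28827530, lay over 1070 bp of the last exon, and it was the only xxChIP peak of the domain that touched an exon of a protein-coding gene. Of the 10 xxChIP H1.2 peaks in the domain 4 were in PHACTR4, and of the 5 xxChIP H1.5 peaks 3 were.

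RCC1 (ENSG00000180198, 28832455 to 28865812, plus strand) codes for the chromatin-bound exchange factor that loads the small GTPase Ran with GTP. Its body was covered to 42.3% by 5 xChIP H1.5 peaks and held no xxChIP peak. TRNAU1AP (ENSG00000180098, 28879597 to 28905057, plus strand), whose product associates with the selenocysteine tRNA, was covered to 36.5% by xChIP H1.5 and to 4.63% by an xxChIP H1.2 peak, with no xxChIP H1.5 peak. The longest xChIP H1.5 peak of the domain, from 28867123 to 28885658, ran across its start. These neighbours therefore shared a body without xxChIP H1.5, and differed by 1 intronic xxChIP H1.2 peak in TRNAU1AP.

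TAF12 (ENSG00000120656, 28914341 to 28974803, minus strand) codes for a histone-fold subunit of TFIID and SAGA. The xChIP H1.5 coverage of its body was 40.9% in 4 peaks, and xxChIP H1.2 covered 1.82% in 1 peak. RAB42 (ENSG00000188060, 28918712 to 28921961, plus strand), a small GTPase gene of the Rab family, lies within the span of TAF12 on the other strand. It had the highest xChIP H1.5 coverage of the 7 at 67.6%, from 1 peak shared with TAF12, and no xxChIP peak. Peaks carry no strand, so the overlap of RAB42 and TAF12 cannot be resolved into one gene or the other.

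GMEB1 (ENSG00000162419, 28995290 to 29045865, plus strand) codes for a DNA-binding protein of the glucocorticoid modulatory element. It was covered to 38.3% by xChIP H1.5, 6.13% by xxChIP H1.2 in 2 peaks and 3.10% by xxChIP H1.5 in 1 peak, and was the only gene wholly inside the domain with both xxChIP lists in its body. YTHDF2 (ENSG00000198492, 29063133 to 29096287, plus strand), a reader of m6A that promotes decay of the marked mRNA, was covered to 53.7% by xChIP H1.5 and 5.60% by xxChIP H1.2. At its end, an xChIP H1.5 peak from 29094954 to 29096447 was centred on an exon, the only one of the 24 to be so.

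**Figure D3:**
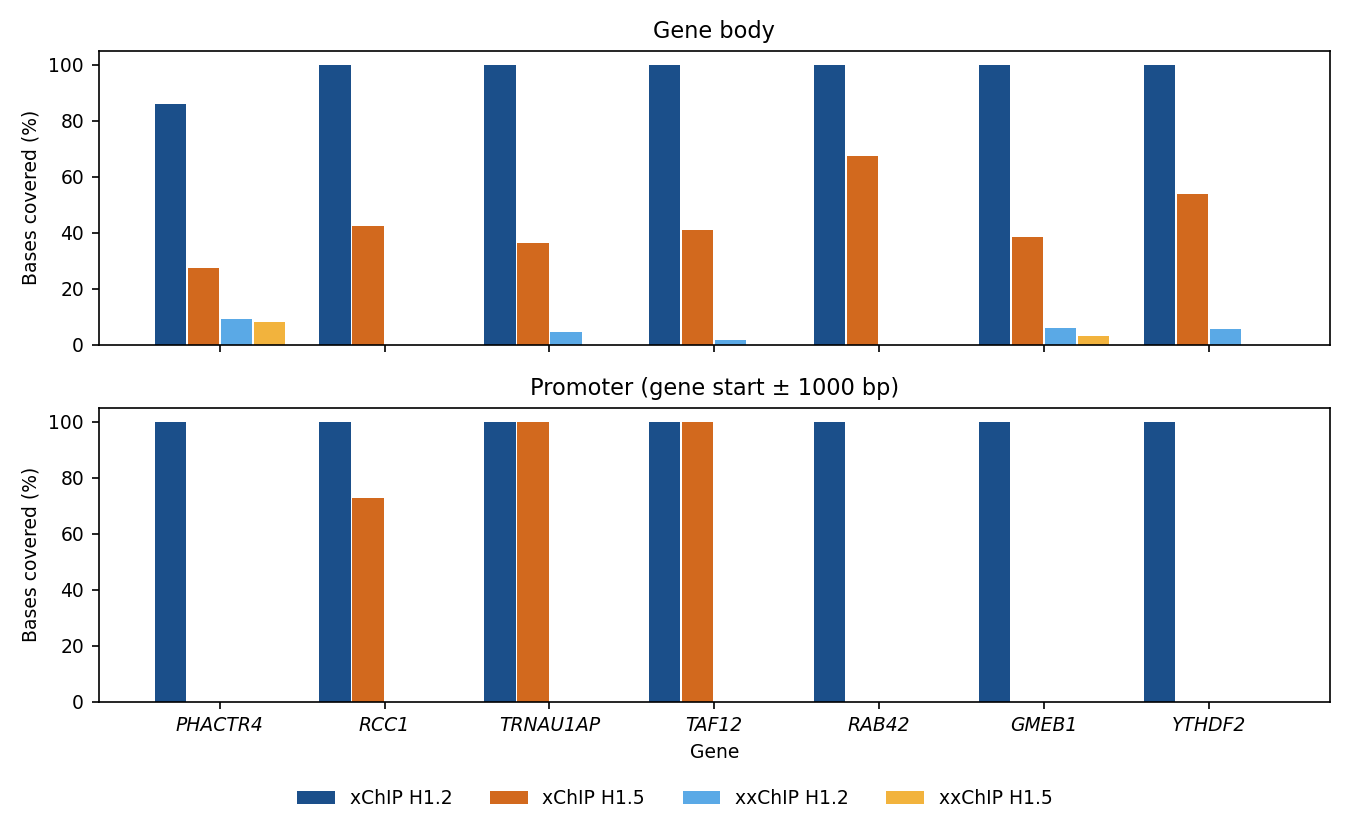
Share of bases covered (%) in the gene body (above) and in the promoter, gene start ± 1000 bp (below), for the 7 genes in order of start along the chromosome, with 1 bar per merged list and no error. All 7 promoters are at 100% for xChIP H1.2, 3 carry xChIP H1.5, and their xxChIP bars are at 0%.

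Within the domain, exons of protein-coding genes were covered to 25.4% by xChIP H1.5, introns to 42.4% and the sequence between genes to 35.3%. For xxChIP H1.2 the values were 0% in exons and 6.15% in introns, and 9 of its 10 peaks were centred in introns. For xxChIP H1.5 they were 2.98%, 1.61% and 2.15%, the exonic part being that of PHACTR4. Exons made up 9.74% of the domain, introns 61.4% and the sequence between genes 28.8%. Over whole peaks the median GC content was 47.8% for the 24 xChIP H1.5 peaks, and in the xxChIP lists 46.2% for the 10 H1.2 peaks and 44.6% for the 5 H1.5 peaks, whose ranges overlapped.

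At the promoters, taken as 1000 bp on either side of the gene start, all 7 genes were fully covered by xChIP H1.2, as were 29.3% of all protein-coding genes. The promoter of PHACTR4 lay in the preceding peak of 137018 bp. Peaks of xChIP H1.5 overlapped 3 of the 7, against 21.6% of all genes, and these were RCC1 at 72.9% of the promoter, TRNAU1AP at 100% and TAF12 at 100%. Neither xxChIP list had a peak at any of the 7 promoters, against 8.78% of all genes with H1.2 and 7.92% with H1.5. Since 86.4% of all promoters had no peak of either xxChIP list, a set of this size without one is near the background and is no result about these genes. The arrangement with xChIP H1.2 alone, found at PHACTR4, RAB42, GMEB1 and YTHDF2, was that of 30.0% of all promoters, and the arrangement with both xChIP lists and no xxChIP list that of 12.6%.

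The call at TAF12 depended on which start was used. Its outermost annotated start is at 28974803, inside an xChIP H1.5 peak, but the MANE Select transcript, a start agreed between annotations, begins 5224 bp further in, at 28969579, with no xChIP H1.5 peak within 1000 bp. Of the 13 annotated starts of TAF12, 1 had an xChIP H1.5 peak in its promoter, against 13 of 14 for RCC1 and 9 of 10 for TRNAU1AP. From MANE Select starts the count was again 3, but with RAB42, at 0.600% of its promoter, in the place of TAF12. For PHACTR4, GMEB1 and YTHDF2 none of the 9, 4 and 6 starts had one. For xxChIP H1.2, 1 of the 13 starts of TAF12 had a peak in its promoter, and no annotated start of the other genes had one.

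Distances from the gene start to the nearest peak separated the genes further. The nearest xChIP H1.5 peak was 1054 bp from the start of RAB42, 1366 bp from PHACTR4, 5282 bp from GMEB1 and 5577 bp from YTHDF2, while the median over all protein-coding genes was 4480.5 bp. The nearest xxChIP H1.2 peak was at 1478 bp for GMEB1 and between 6985 and 24402 bp for the other genes, with a median over the 7 of 15859 bp, against 7249 bp over all genes. The nearest xxChIP H1.5 peak was at 3092 bp for YTHDF2 and 4925 bp for RCC1, and between 28555 and 91182 bp for the remaining genes (median over the 7, 34776 bp, against 8576.5 bp over all genes). None of these xxChIP peaks entered the promoter.

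**Figure D4:**
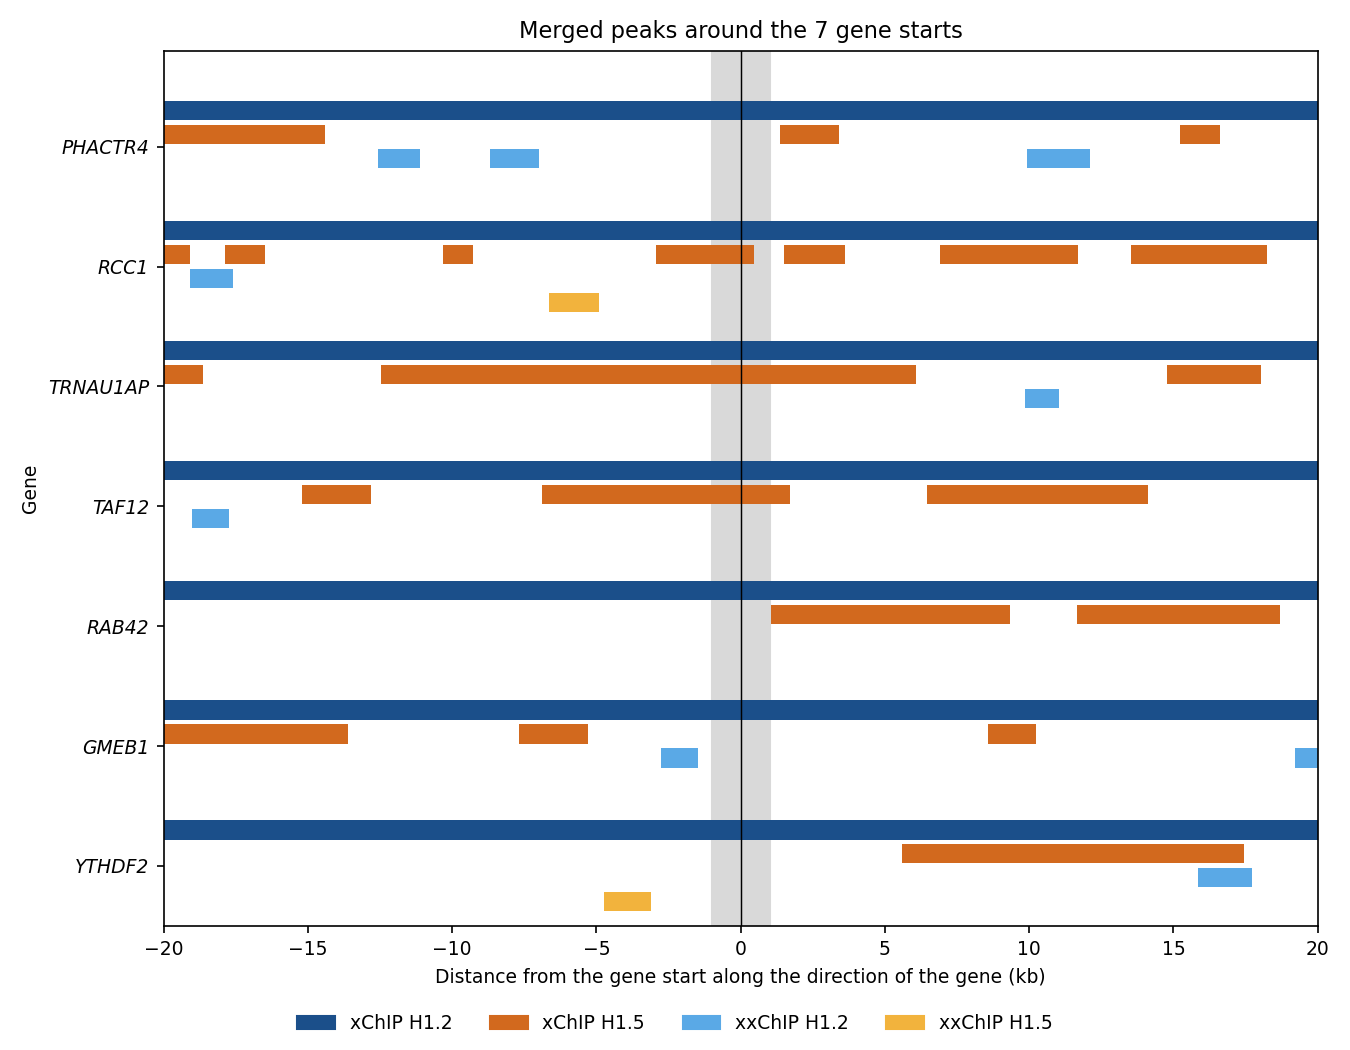
Merged peaks within 20 kb of the 7 gene starts, with distance in kb along the direction of each gene, 4 rows per gene in the order of the legend and the promoter (± 1000 bp) shaded. The xxChIP peaks nearest to a start are those of GMEB1, 1478 bp upstream, and of YTHDF2, 3092 bp upstream, and from the start to 5 kb downstream no xxChIP peak is seen at any of the 7 genes.

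In zones along the direction of the gene, xChIP H1.5 covered on average 35.5% of the bases from 5000 to 1000 bp upstream of the 7 starts, 39.0% within 1000 bp, 45.8% from 1000 to 5000 bp downstream and 51.2% from 5000 to 10000 bp downstream. Over all protein-coding genes these means were 17.9%, 11.6%, 15.1% and 16.8%. The 7 values were widely spread, and in the zone from 5000 to 10000 bp downstream they ran from 0% for PHACTR4 to 88.5% for YTHDF2. Peaks of both xxChIP lists were at 0% from 1000 to 5000 bp downstream of all 7 starts, while 19.7% of all genes had one of xxChIP H1.2 in that zone and 17.4% one of xxChIP H1.5. In either list most genes had none there, so 7 genes without one are near the background and are no result about these genes. From 5000 to 1000 bp upstream, xxChIP H1.2 was present at 1 of the 7 (26.2% of all genes) and xxChIP H1.5 at 2 (22.7%).

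The promoters of the 7 genes differed in composition. Their GC content over 2 kb ran from 48.3% at TAF12 to 61.1% at GMEB1, and the observed/expected CpG ratio from 0.562 at RAB42 to 0.864 at YTHDF2. The YTHDF2 ratio was above that of 94.2% of all protein-coding promoters and that of RAB42 above 42.8%. Sequences of 200 bp before the start are shown to set promoters with xChIP H1.5 beside those without it, and the alternative start of TAF12 beside its outermost one. They are read from GRCh37 in the direction of the gene, with motif matches in capitals.
TRNAU1AP, with xChIP H1.5, chr1:28879397-28879596, plus strand: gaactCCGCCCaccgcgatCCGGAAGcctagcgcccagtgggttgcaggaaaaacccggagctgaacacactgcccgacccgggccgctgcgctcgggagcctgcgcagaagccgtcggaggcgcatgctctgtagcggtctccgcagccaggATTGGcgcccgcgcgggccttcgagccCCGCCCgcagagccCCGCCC
RCC1, with xChIP H1.5, chr1:28832255-28832454, plus strand: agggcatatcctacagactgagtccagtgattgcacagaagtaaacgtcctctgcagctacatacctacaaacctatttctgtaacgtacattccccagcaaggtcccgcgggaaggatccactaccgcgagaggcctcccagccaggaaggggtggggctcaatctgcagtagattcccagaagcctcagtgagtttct
TAF12, outermost start, with xChIP H1.5, chr1:28974804-28975003, minus strand: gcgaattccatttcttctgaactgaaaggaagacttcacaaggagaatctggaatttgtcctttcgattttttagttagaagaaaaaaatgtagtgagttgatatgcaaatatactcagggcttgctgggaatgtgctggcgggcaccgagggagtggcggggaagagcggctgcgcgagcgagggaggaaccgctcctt
TAF12, outermost start beside the MANE Select start, without xChIP H1.5, chr1:28969628-28969827, minus strand: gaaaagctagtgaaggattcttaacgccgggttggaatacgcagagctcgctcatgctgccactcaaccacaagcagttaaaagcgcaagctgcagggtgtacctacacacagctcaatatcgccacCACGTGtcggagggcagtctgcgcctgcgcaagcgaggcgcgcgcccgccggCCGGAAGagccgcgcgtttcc
GMEB1, without xChIP H1.5, chr1:28995090-28995289, plus strand: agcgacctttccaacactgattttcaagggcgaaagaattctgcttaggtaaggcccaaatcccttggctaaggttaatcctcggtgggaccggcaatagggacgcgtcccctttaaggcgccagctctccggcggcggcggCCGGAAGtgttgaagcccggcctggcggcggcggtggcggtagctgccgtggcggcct
YTHDF2, without xChIP H1.5, chr1:29062933-29063132, plus strand: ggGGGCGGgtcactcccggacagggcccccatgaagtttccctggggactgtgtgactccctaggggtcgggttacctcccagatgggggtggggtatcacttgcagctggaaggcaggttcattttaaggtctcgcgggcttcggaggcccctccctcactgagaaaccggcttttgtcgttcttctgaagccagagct
On both strands, the GC box GGGCGG was found in 4 of the 7 sequences taken from gene starts (PHACTR4, TRNAU1AP, RAB42 and YTHDF2) and in 46.5% of all protein-coding promoters of the same length. The ETS core CCGGAAG was found at TRNAU1AP and GMEB1, and in 8.16% of all. The CCAAT box was found at TRNAU1AP, as ATTGG on the printed strand, and in 29.2% of all. The TATA box TATAAA (8.13% of all) and the E-box CACGTG (6.26% of all) were found in 0 of the 7. A GC box and an ETS core occurred both with and without xChIP H1.5.

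The peak also held 13 non-coding genes, all covered to 100% by xChIP H1.2, which their place inside the peak fixes and which is no finding. By the looser measure of at least 1 bp, 46.3% of all 43729 non-coding genes were overlapped by that list. Peaks of xChIP H1.5 overlapped 8 of the 13, against 31.5% of all non-coding genes. In the xxChIP lists 2 were overlapped for H1.2, against 30.5% of all, and 0 for H1.5, against 28.1% of all. The 13 genes had a median length of 394 bp and all non-coding genes one of 968 bp, and a shorter gene is touched less easily. SNHG3, a host gene of small nucleolar RNAs (28832492 to 28837404), lies within the span of RCC1 on the same strand. It was covered to 51.5% by xChIP H1.5, with its snoRNA SNORA73B at 100%, and these bases are among those counted for RCC1. SNHG12 (28905050 to 28909644), the host of SNORD99 next to the end of TRNAU1AP, was covered to 0% by xChIP H1.5 and by both xxChIP lists. The other snoRNA genes, like SNORA73B, lay within protein-coding genes on the same strand, snoU13 in RCC1 at 100% for xChIP H1.5 and SCARNA24 in GMEB1 at 0% for xChIP H1.5 and 24.6% for xxChIP H1.2.

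Beyond the domain, 28 protein-coding genes lay within about 1 Mb. Their promoters overlapped xChIP H1.2 peaks in 25 cases, xChIP H1.5 peaks in 12, xxChIP H1.2 peaks in 1 and xxChIP H1.5 peaks in 0. By share, xChIP H1.5 was at 42.9% of the flank promoters, the same share as among the 7 genes. The nearest genes on the left were MED18, a subunit of the Mediator complex, SESN2, a stress-response gene, and ATP5IF1, an inhibitor of the mitochondrial ATP synthase, all with promoters at 100% for xChIP H1.2 and at 93.5%, 100% and 100% for xChIP H1.5. On the right OPRD1, the gene of the delta opioid receptor, began 2670 bp after the peak. Its promoter lay in the gap of 8151 bp, where none of the 4 lists had a peak and the GC content was 54.4%, although the xChIP lists covered 90.7% (H1.2) and 79.1% (H1.5) of its body. The gap of 3655 bp before the peak also held no peak of any list, with a GC content of 36.7%, and contained 2 internal starts of PHACTR4. Further right, EPB41, the gene of the membrane skeleton protein 4.1, and TMEM200B had promoters at 100% for xChIP H1.2, and at 100% and 9.75% for xChIP H1.5.

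Genes that act with the 7 or are related to them by sequence were examined in the same way, 51 partners in all. Their promoters overlapped xChIP H1.2 peaks in 34 cases (66.7%, against 48.2% of all protein-coding genes), xChIP H1.5 peaks in 14 (27.5%, against 21.6%), xxChIP H1.2 peaks in 3 (5.88%, against 8.78%) and xxChIP H1.5 peaks in 0 (7.92% of all). Among the other 15 subunits of TFIID, 12 promoters carried xChIP H1.2, 9 of them at 100%, and TAF3, TAF7 and TAF10 were at 0%. The H1.5 list of xChIP was present at 5. In the core and acetyltransferase module of SAGA, the coactivator that shares TAF12, 7 of 11 promoters were at 100% for xChIP H1.2, and TAF5L, SUPT7L, TADA1 and KAT2A at 0%. In the Ran cycle 7 of the 8 partners of RCC1 carried xChIP H1.2, of which RAN, RANBP2, NUTF2, XPO1 and CSE1L were at 100%, and RANGAP1, which stimulates GTP hydrolysis by Ran, was at 0%.

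Of the relatives of YTHDF2, none of YTHDF1, YTHDF3, YTHDC1 and YTHDC2 had an xChIP H1.2 peak at the promoter. Peaks of xChIP H1.5 covered 32.4% of the promoter of YTHDF1 and 26.0% of that of YTHDC1. YTHDC1, the nuclear reader of m6A, also overlapped an xxChIP H1.2 peak by 2.10% of its promoter. Of the 7 partners of TRNAU1AP in selenocysteine insertion, SEPHS1 and SEPHS2 were at 100% for xChIP H1.2, and SECISBP2 and SARS1 at 0%. SEPSECS, which makes selenocysteine on its tRNA, carried xxChIP H1.2 over 78.5% and xChIP H1.2 over 41.1% of its promoter. EEFSEC, the elongation factor for selenocysteine, carried xxChIP H1.2 over 6.65% and xChIP H1.2 over 84.9%. PHACTR2 was at 100% for xChIP H1.2 and PHACTR1 and PHACTR3 at 0%. GMEB2 was at 100% for both xChIP lists, and RAB39A at 100% and RAB39B at 0% for xChIP H1.2.

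Among long xChIP H1.2 peaks the 1p35 peak lay above the median in coverage by xChIP H1.5, below it in coverage by both xxChIP lists, and near the top in gene number. Of the 5803 xChIP H1.2 peaks of at least 20 kb, 58.5% were covered less by xChIP H1.5. For the xxChIP lists it was 34.4% (H1.2, median of these peaks 6.57%) and 29.7% (H1.5, median 5.08%). In GC content 66.9% were lower, and in the number of overlapping protein-coding genes, which grows with length, 99.0% were lower. Among the 10 longest, the 1p35 peak had the second lowest coverage by each xxChIP list and the third lowest by xChIP H1.5. The longest peak, on chromosome 7 from 73651204 to 74126926, had lower xxChIP coverage, at 1.77% and 1.01%, with xChIP H1.5 at 73.2%. The peak of 359627 bp on chromosome 12, from 37943654 to 38303280, stood apart from the other 9 with 77.5% and 66.7% in the xxChIP lists, a GC content of 37.7% and 0 protein-coding genes.

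**Figure D5:**
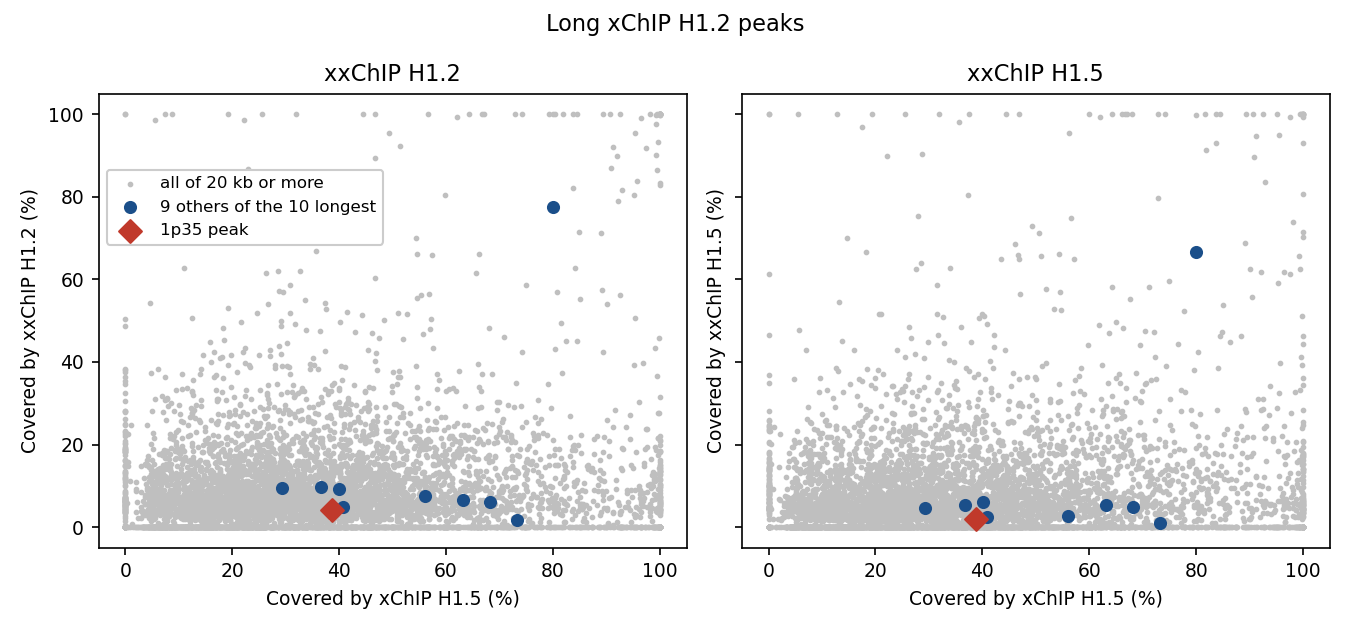
Coverage of each xChIP H1.2 peak of at least 20 kb (5803 grey points) by xChIP H1.5 (x axis, %) and by xxChIP H1.2 (left) or xxChIP H1.5 (right, y axis, %), with the 1p35 peak as a red diamond and the other 9 of the 10 longest in blue. The 1p35 peak sits at 38.7% on the x axis and at 4.13% and 1.90% on the y axes, within the grey cloud, and 1 of the blue points lies far above it in both panels.

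Likeness to the 7 genes was measured over 12 values per gene, the coverage of the body, the promoter and the 500 kb around the start by each list, as the Euclidean distance in percentage points from the medians of the 7. The nearest protein-coding genes outside the region were CCZ1 on chromosome 7 (distance 6.93), the gene ENSG00000144785 on chromosome 12 (7.81), KBTBD4 (7.99) and FNBP4 (10.5) on chromosome 11, and DAP3 on chromosome 1 (10.8). All 5 had promoters at 100% for xChIP H1.2 and at 0% for the other lists, and bodies covered to between 35.9% and 43.2% by xChIP H1.5. They were picked for nearness to the medians, so these shared values follow from the choice and are no finding. CCZ1 has a near-identical copy in the genome, so peaks called there from uniquely mappable reads are uncertain. The 7 genes set these medians, and the xChIP H1.2 values among them follow from the choice of genes, so their own distances are given as a description only. GMEB1 was the closest of the 7, at 4.35. TRNAU1AP (100.3) and TAF12 (100.0) were the farthest, both through xChIP H1.5 at the promoter. The medians describe some of the 7 poorly. Of 20062 genes outside the region, 4955 lay nearer than TRNAU1AP, 4942 nearer than TAF12 and 3041 nearer than RCC1.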

How the data were processed

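Sequencing followed each protocol on HL-60/S4 cells. Paired-end reads were aligned by the authors to hg19 (Bowtie2, at most 2 mismatches, unique hits kept), peaks were called in each replicate with the default settings of MUSIC, and the 3 lists of a group were merged into 1. The deposited values are peak starts and ends in bp. Versions of these tools are not given in the sources used here. Depth is unknown, and merging can lengthen peaks.

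Samples were grouped by protocol and antibody from their titles. Covered bases were computed from the lists with Python 3.11.15, numpy 2.4.6, scipy 1.17.1 and pyfaidx 0.9.0.4, after tests on simulated peaks, and drawn with matplotlib 3.10.9. Genes came from GENCODE 44 lifted to GRCh37, the sequence of hg19. Overlap was counted from 1 bp. The promoter was the gene start ± 1000 bp, windows had 10 kb and flanks 1 Mb. Windows cut by an end of the peak or by an assembly gap were left out of the counts of windows but not of the correlations over 250 windows.

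The 7 genes and the partner lists were chosen with earlier results of these data known. The genes named are the 7, those cut by the peak, the 3 nearest on each side, partners with an xxChIP peak at the promoter or the lowest or highest xChIP H1.2 coverage, snoRNA hosts, and the 5 most alike. Starts from MANE Select, promoters of ± 5000 bp and the exclusion of the assembly gap were added after seeing the data, as were the sequence motifs, the naming of SNORA73B, SNORD99, snoU13 and SCARNA24, zones around the start and ranks among the 10 longest peaks. Input samples were not used here, and sequences of the peaks are not reported here.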

Additional observations from a re-analysis of the deposited data

How the results depend on the processing

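All values come from 4 merged lists. No paired analysis was possible because the replicates were merged by the authors before deposit, and for the same reason no replicate could be left out. Of 117 alternative values 66 were classed as the same. Counts and the rank had to stay within 1.5 times, and correlations had to be equal. Percentages had to stay within a Wilson interval that takes each base or gene as independent, which neighbouring bases are not. The flank percentages without the assembly gap were classed as moved without this comparison. The tally is therefore only a rough guide. The order of the 7 genes against the flank genes in bodies covered by xChIP H1.5 turned at 75%. The cause of the other changes was not tested beyond what each setting removes or adds.

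Short peaks carried the xxChIP signal of the domain. With peaks of at least 2000 bp, coverage was 36.8% for xChIP H1.5 and, in the xxChIP lists, 0.673% (H1.2) and 0% (H1.5), and that of the flanks was 63.8%, 26.7%, 8.62% and 6.32% in list order (H1.2 then H1.5, the xChIP pair before the xxChIP pair). Joining peaks up to 1000 bp apart gave 4.36% for xxChIP H1.2 in the domain, 65.7% and 30.1% for the xChIP lists in the flanks, and made the 1p35 peak the third longest. In list order, flanks of 1 Mb with all bases counted were covered to 65.5%, 29.9%, 13.0% and 10.4%, flanks of 500 kb to 82.1%, 35.03%, 10.2% and 6.55%, flanks of 2 Mb to 60.9%, 28.8%, 14.5% and 13.6%, and flanks without the assembly gap to 70.8%, 32.4%, 14.0% and 11.2%.

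The number of the 7 bodies covered by xChIP H1.5 was 7 at 25%, against 14 of 28 flank genes and 18.3% of all protein-coding genes. It was 7 at 1 shared bp (70.3% of all), 0 at 75% (1.91% of all) and 1 with peaks of at least 2000 bp. At 1 shared bp the xxChIP lists gave 5 (H1.2, against 60.6% of all) and 2 (H1.5, against 58%). At promoters of ± 2500 bp the counts were 5 for xChIP H1.5 and 1 for xxChIP H1.2, at ± 5000 bp they were 5 for xChIP H1.5 and, in the xxChIP lists, 1 (H1.2) and 2 (H1.5), and any transcript start gave 1 for xxChIP H1.2. Over all protein-coding genes the shares in list order were 61.9%, 36.3%, 21.2% and 18.6% at ± 2500 bp and 75.1%, 52.9%, 38.6% and 34.0% at ± 5000 bp. At ± 500 bp they were 41.8%, 15.2%, 5.26% and 5.24%. Shares over all genes were not computed for peaks of at least 2000 bp or for any transcript start. Over all annotated genes the promoter background was 42.4%, 22.7%, 18.2% and 15.8% in list order. Partners with xChIP H1.5 numbered 9 at ± 500 bp and 9 with peaks of at least 2000 bp, those with xxChIP H1.2 1, 8 and 1 at ± 500 bp, ± 2500 bp and with peaks of at least 2000 bp, and those with xxChIP H1.5 5 at ± 2500 bp. The correlation of the xxChIP lists was 0.335 in windows of 1 kb, 0.821 in windows of 50 kb, 0.456 in the flanks alone and 0.457 without the assembly gap.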
